A study of Mus musculus with 12 samples.

Results

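Islet endocrine cells make their products as large precursors, cut them inside dense-core granules and release the granules when calcium enters the cell. This account follows 36 genes of that secretory path in the embryonic mouse pancreas: the granins and related granule cargo, the enzymes that process prohormones, proteins of the granule membrane, the transporter, enzyme and ion channels that sense glucose, the calcium sensors of exocytosis, islet receptors, and other genes that islet cells express. Members were chosen by name with earlier results of these data known, and every probe set whose single gene symbol was a member was taken. Shares of members set beside shares of all probe sets are therefore description only. This gave 54 probe sets for 33 of the 36 genes, out of 45037 probe sets tested. Ffar1, Pcsk2 and Prlr had no such probe set and were not analysed here. Of the 33 genes, 20 had 1 probe set and 13 had several, and where 1 probe set stood for a gene it was picked by its name alone.

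The samples were 12 pancreata from embryos of Pdx1Cre/+; β-catenin flox/+ parents, each on an Affymetrix MOE430 2.0 array. At each of E14.5 and E16.5 there were 4 pancreata of the genotype Pdx1Cre/+; β-catenin flox/flox, called β-catenin KO, and 2 wildtype pancreata, for which the labels do not say whether an embryo carried the Cre transgene or a floxed allele. The animals were untreated, and the text for the series gives the earlier day a slightly later figure than the array labels do. Cre was driven by the Pdx1 promoter, which acts in the pancreatic epithelium, so nerve, vessel and mesenchyme cells in the same sample were not targeted, and some acini of such KO pancreata keep β-catenin. The authors divided every value by what the 2 wildtype arrays of that day averaged. Wildtype values therefore average 1 at each day by construction, so how abundant a transcript is, and whether it rises with age in wildtype pancreas, cannot be read. For the same reason, absence of a tissue marker cannot be read. Because whole pancreata were used, more cells of a type and more RNA per cell cannot be told apart. Some array names share a number, as KO_540C and KO_540G do, and as both wildtype arrays of E14.5 do (WT_522B and WT_522C), but its meaning is not stated. No number is carried by both a wildtype and a KO array, so a difference between genotypes cannot be told apart from one between numbers. The authors reported more variability among the E14.5 samples and gave harvesting or embryo stage as possible reasons.

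Ctnnb1, which encodes β-catenin, was the targeted gene. Its 3 probe sets gave ratios from 0.701 to 1.31 in the 4 KO pancreata of E14.5 and from 0.620 to 1.05 in those of E16.5, and none passed limma at either day (lowest adjusted p = 0.152). Whether these probe sets lie in the deleted exons is not known here, so they do not check the labels. The median log2 ratio over all probe sets of an array lay between -0.04 and 0.10.

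By background, granins such as chromogranin A and B bind calcium and hormone in the granule. The convertase encoded by Pcsk1 and carboxypeptidase E cut and trim prohormones, Slc30a8 loads granules with zinc, and Slc2a2, G6pc2 and the channel formed by Abcc8 and Kcnj11 set the response of the β-cell to glucose. Many of these genes are also expressed in neurons, which use the same granules for neuropeptides. Several granin genes carry a cAMP response element in the promoter, and G6pc2 is a known target of the NeuroD family.

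RefSeq promoters in GRCm38.p6 were found for 26 of the 36 genes, 34 promoters in all, and the 250 bases before each start were searched on both strands for 4 motifs: TGACGTCA (CRE, the cAMP response element), its core TGACGT (contained in CRE), CAGATG (an E-box of the kind bound by NeuroD) and CTTTGAT (a Tcf/Lef motif, the sites through which β-catenin acts). The last 120 bases before the start are printed 5′ to 3′ on the strand of the gene, with motif matches in capitals. Windows are shown for the genes whose chosen probe set passed at an unadjusted p at either day, so that those with and without a motif can be compared. Of these, Vgf, Cpe, Syt13 and Ttr had no RefSeq promoter here. The 8 windows of the others are Chga at chr12:102554821-102554940 (+ strand), Chgb at chr2:132781522-132781641 (+), Scg3 at chr9:75684057-75684176 (- strand), Ptprn at chr1:75263772-75263891 (-) and chr1:75264209-75264328 (-), G6pc2 at chr2:69219829-69219948 (+) and chr2:69210953-69211072 (+), and Cryba2 at chr1:74893144-74893263 (-).
Chga: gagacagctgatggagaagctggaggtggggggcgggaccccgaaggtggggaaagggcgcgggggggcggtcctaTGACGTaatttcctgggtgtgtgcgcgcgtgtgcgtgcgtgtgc
Chgb: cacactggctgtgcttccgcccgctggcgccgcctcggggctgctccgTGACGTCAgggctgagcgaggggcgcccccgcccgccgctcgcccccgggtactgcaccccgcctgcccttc
Scg3: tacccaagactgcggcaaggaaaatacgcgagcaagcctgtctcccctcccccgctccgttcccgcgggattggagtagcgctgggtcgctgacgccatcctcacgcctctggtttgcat
Ptprn, first window: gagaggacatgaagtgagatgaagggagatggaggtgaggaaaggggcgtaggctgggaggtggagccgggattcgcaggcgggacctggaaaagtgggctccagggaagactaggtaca
Ptprn, other window: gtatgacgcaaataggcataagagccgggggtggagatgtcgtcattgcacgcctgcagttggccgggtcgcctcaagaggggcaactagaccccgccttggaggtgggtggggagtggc
G6pc2, first window: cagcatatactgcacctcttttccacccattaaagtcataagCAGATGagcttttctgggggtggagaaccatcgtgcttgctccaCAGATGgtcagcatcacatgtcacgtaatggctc
G6pc2, other window: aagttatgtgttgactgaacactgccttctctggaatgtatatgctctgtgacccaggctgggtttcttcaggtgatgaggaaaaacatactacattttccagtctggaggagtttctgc
Cryba2: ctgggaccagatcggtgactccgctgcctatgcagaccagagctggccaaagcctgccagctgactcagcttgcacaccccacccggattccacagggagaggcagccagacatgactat
CRE was present in Chgb, beginning 72 bases before the start, and only its core was present in Chga, 44 bases before. G6pc2 held the E-box at 78 and at 34 bases before the start in the first window, while its other promoter held none of the 4 motifs. Scg3, Cryba2 and both promoters of Ptprn held none of them either. Scg2 and Pcsk1, which passed at neither day, held CRE at 68 and 78 bases before the start. Over all members, CRE was found in 3 of 34 promoters, beside 1.55% of all 32851 promoters of the same length. The core was found in 6 (Chga, Chgb, Pcsk1, Prlr, Scg2 and Scg5), beside 6.47% of all, and CAGATG in 4 (Ffar1, G6pc2, Prlr and Ucn3), beside 14.4%. CTTTGAT was found in 2 (Prlr and Rbp4), beside 3.21%. These are matches of letters in a window, and no binding was measured here.

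At E14.5 the secretory genes were mostly higher in KO than in wildtype pancreas, but none passed the limma test after adjustment over all 45037 probe sets. Of the 54 probe sets, 49 had a fold change above 0 on the log2 scale and 5 below, with a median of 0.17, beside a median of 0.02 over all probe sets, of which 55.4% were above 0. Of the 54, 0 passed at an adjusted p under 0.05 in either direction, and over all probe sets 0.00222% passed as higher and 0.00888% as lower. At an unadjusted limma p under 0.05, 12 probe sets (22.2%) of 12 genes were higher, beside 2.34% of all, and 0 were lower, beside 4.52%. All 4 KO values lay above both wildtype values for 18 probe sets (33.3%) of 15 genes, beside 8.17% of all. None of the 54 lay wholly below, beside 8.06%. The count of 12 became 6 without KO_540C, 6 without KO_615B, 3 without WT_522B and 7 without WT_522C, where a lone wildtype array was assumed to vary like the other groups. The count of 18 became 33 without WT_522C, since fewer arrays leave fewer to overlap. For neither count was the share of all probe sets taken with an array left out. The changed counts therefore cannot be set beside the shares above.

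At E16.5 most secretory genes were again above 0, and a single probe set, of Syt7, passed the adjusted test. Of the 54 probe sets, 43 were above 0 and 11 below, with a median of 0.20, beside 0.03 over all probe sets, of which 56.1% were above 0. The passing probe set was 1 of 54 (1.85%), beside 0.802% of all as higher. None passed as lower, beside 1.82% of all. At an unadjusted limma p, 9 probe sets (16.7%) of 8 genes were higher, beside 8.48%, and 2 (3.7%), of Cacna1d and Ttr, were lower, beside 8.16%. All 4 KO values were above both wildtype values for 13 probe sets (24.1%), beside 14.5%, and below both for 2 (3.7%), beside 11.1%. Without KO_591D, 6 probe sets passed the adjusted test (1 each of Chgb, Scg3, Vgf and Syt13, and 2 of Syt7), and over all probe sets 3.49% then passed as higher. The count of 9 became 17 without that pancreas and 5 without KO_591C. The count of 13 became 25 without KO_591D, 22 without WT_622A and 27 without WT_628G, since fewer arrays leave fewer to overlap. For neither count was the share of all probe sets taken with an array left out, so these cannot be set beside 8.48% or 14.5%.

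**Figure D1:**
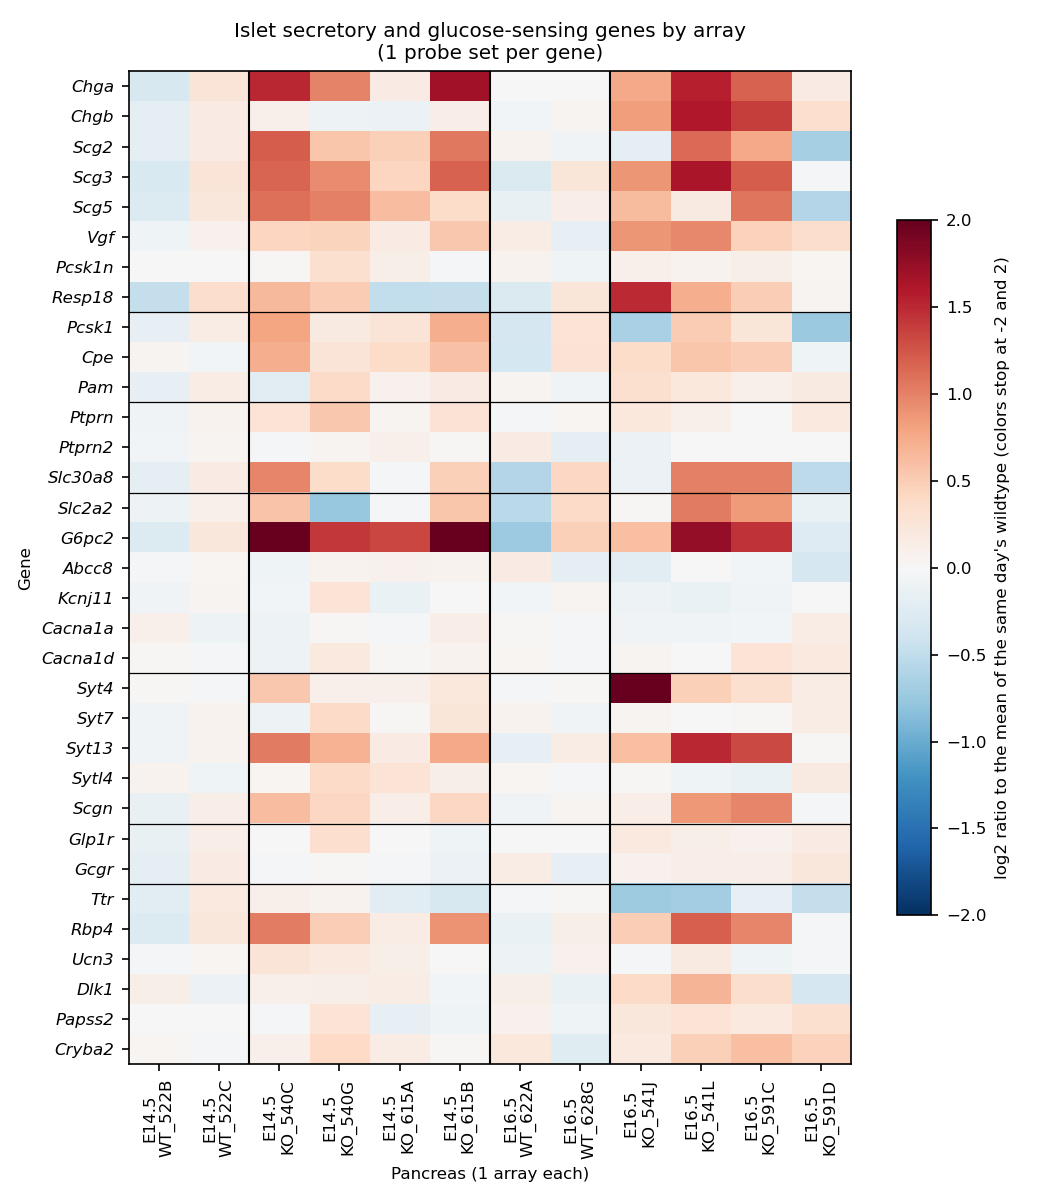
Log2 ratio of each measured gene (rows, 1 probe set per gene, grouped by role) in each of the 12 pancreata (columns), with red above and blue below the wildtype average of that day. Most granule cargo rows at the top are red in most KO columns. Pcsk1n is pale in all of them, Chgb is pale at E14.5, and Resp18 is blue in KO_615A and KO_615B. KO_615A at E14.5 and KO_591D at E16.5 are pale over much of their columns, with member medians of 0.11 and 0.02.

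In the map of log2 ratios by array, most rows of the granule cargo and that of G6pc2 stand out against those of the ion channels, which stay near white. Granule cargo was the group with all of its measured genes higher at both days. Its 8 genes, each on its chosen probe set, had fold changes from 0.01 to 1.11 on the log2 scale at E14.5, with a median of 0.60. At E16.5 they ranged from 0.09 to 1.04, with a median of 0.69. None passed the adjusted test, while 3 of 8 at E14.5 (Chga, Scg3 and Vgf) and 4 of 8 at E16.5 (these and Chgb) passed at an unadjusted p, beside 2.34% and 8.48% of all probe sets as higher.

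Chga encodes chromogranin A, the granin most used as a marker of endocrine cells. Its ratios at E14.5 were 2.83, 1.99, 1.12 and 3.19 in KO_540C, KO_540G, KO_615A and KO_615B, against 0.799 in WT_522B and 1.20 in WT_522C. At E16.5 they were 1.70 in KO_541J, 2.93 in KO_541L, 2.27 in KO_591C and 1.13 in KO_591D, against 1.004 and 0.996 in wildtype. At E14.5 KO_615A lay within the wildtype pair and the others lay above it, and at E16.5 all 4 were above. The mean KO ratio was 2.28 ± 0.926 (SD, n = 4) at E14.5 and 2.01 ± 0.773 (SD, n = 4) at E16.5. On the log2 scale the limma fold changes were 1.11 (SE 0.42, adjusted p = 0.647) and 0.92 (SE 0.42, adjusted p = 0.295).

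Chgb, which encodes chromogranin B, differed from Chga at the earlier day. Its E14.5 ratios were 1.07, 0.930, 0.918 and 1.10 in KO_540C, KO_540G, KO_615A and KO_615B, inside the wildtype values of 0.884 and 1.12. Its E16.5 ratios were 1.78, 3.05, 2.60 and 1.26 in KO_541J, KO_541L, KO_591C and KO_591D, all above the wildtype values of 0.961 and 1.04. The fold changes on the log2 scale were 0.01 (SE 0.28) and 1.04 (SE 0.28, limma adjusted p = 0.0714). The difference between the days was 1.03 (SE 0.39) and did not pass (limma adjusted p = 0.361). Without KO_591D the E16.5 fold change was 1.28 on the log2 scale and passed (limma adjusted p = 0.00605), and over the alternatives run its adjusted p ranged from 0.00605 to 0.638.

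Scg3 encodes secretogranin III, which holds other granins at the granule membrane. At E14.5 it was read at 2.25, 1.93, 1.34 and 2.26 in KO_540C, KO_540G, KO_615A and KO_615B, all above the wildtype values of 0.806 and 1.19. At E16.5 it was read at 1.84, 3.11, 2.33 and 0.975 in KO_541J, KO_541L, KO_591C and KO_591D, where KO_591D lay between the wildtype values of 0.819 and 1.18. The fold changes were alike in size, 0.96 (SE 0.38, limma adjusted p = 0.677) and 0.95 (SE 0.38, limma adjusted p = 0.231) on the log2 scale, and their difference was -0.01 (SE 0.54). Without KO_591D the E16.5 value was 1.27 (limma adjusted p = 0.0267, range over the alternatives 0.0267 to 0.9997).

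Vgf, which encodes a granule protein cut into several peptides, lay above wildtype in every KO pancreas at both days. At E14.5 the KO ratios were 1.34, 1.36, 1.12 and 1.46 in the same order as for Scg3, against 0.942 and 1.06. At E16.5 they were 1.85, 1.95, 1.38 and 1.27, against 1.11 and 0.895. The groups did not overlap, and the smallest margin over the higher wildtype array was that of KO_615A. The fold changes were 0.40 (SE 0.18, limma adjusted p = 0.726) and 0.67 (SE 0.18, limma adjusted p = 0.0752). Without KO_591D the latter was 0.78 and passed (limma adjusted p = 0.0233, range over the alternatives 0.0233 to 0.523).

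The other 4 cargo genes had wider spread or smaller values. Scg2, which encodes secretogranin II, ranged from 1.39 to 2.32 in KO at E14.5, wholly above wildtype, but from 0.631 to 2.19 at E16.5, on both sides of it. Scg5, the chaperone of the prohormone convertase encoded by Pcsk2, showed the same layout, with 1.29 to 2.15 at E14.5 and 0.664 to 2.10 at E16.5. Resp18, a granule protein of neuroendocrine cells, ranged from 0.715 to 1.57 and from 1.04 to 2.80. Pcsk1n, whose product inhibits the convertase encoded by Pcsk1, stayed between 0.980 and 1.25 at both days. The cargo genes did not share a single pattern over the 8 KO pancreata, and their E14.5 fold changes ran from 0.01 for Chgb to 1.11 for Chga.

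Among the processing enzymes, Cpe, which encodes carboxypeptidase E, had E14.5 ratios of 1.66, 1.20, 1.29 and 1.49 in KO_540C, KO_540G, KO_615A and KO_615B, above the wildtype values of 1.04 and 0.958. At E16.5 they were 1.29, 1.48, 1.41 and 0.945 in KO_541J, KO_541L, KO_591C and KO_591D, against 0.783 and 1.22. The fold changes were 0.49 (SE 0.21, limma adjusted p = 0.696) and 0.37 (SE 0.21, limma adjusted p = 0.424). Its other probe set, 1439437_x_at, gave 0.16 and 0.08. Pcsk1 was above wildtype in all 4 KO pancreata of E14.5, from 1.14 to 1.74, and ran from 0.596 to 1.42 at E16.5, with fold changes of 0.50 and -0.13. Pam, which encodes the enzyme that amidates peptide ends, gave 0.11 and 0.21.

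The granule membrane genes were closer to wildtype. Ptprn, which encodes the granule protein IA-2, had E14.5 ratios of 1.21, 1.45, 1.04 and 1.22 in KO_540C, KO_540G, KO_615A and KO_615B, against 0.950 and 1.05. At E16.5 the ratios were 1.16, 1.08, 1.01 and 1.15 in KO_541J, KO_541L, KO_591C and KO_591D, against 0.972 and 1.03. A single KO pancreas at each day lay within the wildtype pair, and the fold changes were 0.29 (SE 0.12, limma adjusted p = 0.691) and 0.14 (SE 0.12). Slc30a8, which encodes the zinc transporter of the insulin granule, was read from 0.979 to 1.98 at E14.5. At E16.5 it split, with 2.02 in KO_541L and 2.01 in KO_591C but 0.918 in KO_541J and 0.694 in KO_591D, inside wildtype values of 0.667 and 1.33. Ptprn2, which encodes a relative of IA-2, gave 0.04 and -0.02 on the log2 scale.

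**Figure D2:**
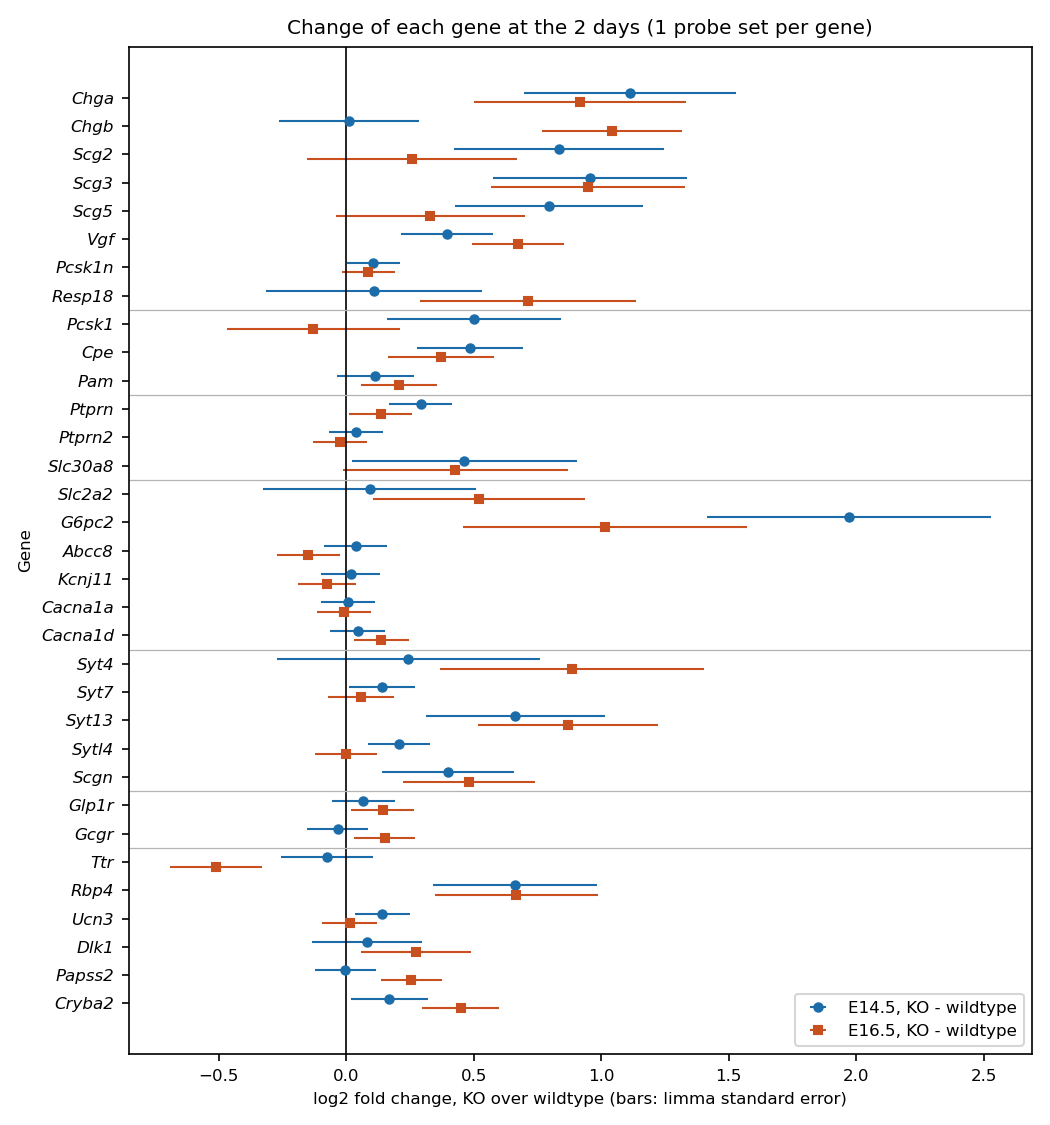
Log2 fold change of KO over wildtype for each gene on its chosen probe set, with the limma standard error as a bar, at E14.5 (blue circles) and E16.5 (orange squares); horizontal lines divide the roles. G6pc2 at E14.5 lies farthest to the right at 1.97, Ttr at E16.5 farthest to the left at -0.51, and the ion channel genes lie close to 0.

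The plot of fold changes at both days shows how far the glucose-sensing genes lay from each other. G6pc2 encodes the islet glucose-6-phosphatase catalytic subunit, which opposes glucokinase and is found almost only in islet cells. Its E14.5 ratios were 5.08, 2.66, 2.53 and 6.51 in KO_540C, KO_540G, KO_615A and KO_615B, against 0.827 and 1.17 in wildtype. All 4 KO pancreata were above the wildtype pair, with a mean of 4.20 ± 1.94 (SD, n = 4). The fold change was 1.97 on the log2 scale (SE 0.56, limma unadjusted p = 0.00422, adjusted p = 0.526). It was the highest of the 33 chosen probe sets at that day and ranged from 1.64 to 2.22 over the alternatives, none of which passed the adjusted test. At E16.5 the ratios were 1.52, 3.39, 2.73 and 0.834 in KO_541J, KO_541L, KO_591C and KO_591D. The wildtype pair of that day was itself far apart, at 0.602 and 1.40, and KO_591D lay between them. The E16.5 fold change was 1.01 (SE 0.56, limma adjusted p = 0.410), and the difference between the days was -0.96 (SE 0.79, limma adjusted p = 0.780).

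Slc2a2, which encodes the glucose transporter GLUT2, ranged from 0.594 to 1.48 at E14.5 and from 0.917 to 2.05 at E16.5, and overlapped wildtype at both. The chosen probe sets of the channel genes were flat. Abcc8 (the sulfonylurea receptor) gave 0.04 and -0.15 on the log2 scale, Kcnj11 (the pore of the same potassium channel) 0.02 and -0.08, Cacna1a (a P/Q-type calcium channel) 0.01 and -0.01, and Cacna1d (an L-type calcium channel) 0.04 and 0.14. The 6 genes of this role had E14.5 and E16.5 medians of 0.04 and 0.06, close to the medians of all probe sets.

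Syt7 encodes synaptotagmin 7, a calcium sensor of granule release, and held the only member call, on probe set 1441927_at. Its E16.5 ratios there were 2.26 in KO_541J, 3.36 in KO_541L, 2.94 in KO_591C and 1.44 in KO_591D, against 0.979 in WT_622A and 1.02 in WT_628G. All 4 KO pancreata were above the wildtype pair, with a mean of 2.50 ± 0.838 (SD, n = 4), and the level rose by 1.25 on the log2 scale (SE 0.27, limma adjusted p = 0.0335). At E14.5 the ratios were 1.499, 1.17, 1.02 and 1.24 in KO_540C, KO_540G, KO_615A and KO_615B, against 1.01 and 0.995, with a fold change of 0.29 (SE 0.27, adjusted p = 0.923). The difference between the days was 0.96 (SE 0.38, limma adjusted p = 0.380). The E16.5 call was lost under quantile normalization, median centring, a trended, robust variance, separate fits of the days and the methods' t-test, and without any 1 of KO_541J, KO_541L, KO_591C, KO_615B and the wildtype arrays. Its adjusted p ranged from 0.00194 to 0.383, and its fold change was never below 0.59 on the log2 scale.

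The probe sets of Syt7 differed from each other. Probe set 1460081_at was read at 2.03, 2.63, 2.10 and 1.13 in KO_541J, KO_541L, KO_591C and KO_591D, against 0.934 and 1.07, with a fold change of 0.92 (SE 0.32, limma adjusted p = 0.160). The other probe sets, 1423012_at and 1439633_at, gave 0.06 and 0.12 on the log2 scale at E16.5. Which transcripts each probe set reads was not established here.

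Syt13 encodes an atypical synaptotagmin that does not bind calcium. Its chosen probe set gave 2.05, 1.62, 1.12 and 1.69 in KO_540C, KO_540G, KO_615A and KO_615B at E14.5, all above 0.955 and 1.05. At E16.5 it gave 1.53, 2.84, 2.49 and 1.01 in KO_541J, KO_541L, KO_591C and KO_591D, against 0.895 and 1.11. As for Chga and Scg3, KO_615A and KO_591D were the lowest KO pancreata of their days. The fold changes were 0.66 (SE 0.35, limma adjusted p = 0.779) and 0.87 (SE 0.35, limma adjusted p = 0.233), and the latter was 1.15 without KO_591D (limma adjusted p = 0.0350, range over the alternatives 0.0350 to 0.804). The other probe set of the gene, 1451045_at, did not share the later difference. It ranged from 1.15 to 1.395 in KO at E14.5, wholly above wildtype, and from 0.910 to 1.07 at E16.5, inside the wildtype values of 0.915 and 1.09 but for KO_541J, with fold changes of 0.32 (limma adjusted p = 0.641) and 0.03 on the log2 scale.

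Syt4, which encodes a synaptotagmin of neuroendocrine granules, turned on a single pancreas at E16.5. Its chosen probe set was read at 6.02 in KO_541J but at 1.40, 1.25 and 1.11 in KO_541L, KO_591C and KO_591D, against 0.986 and 1.01, and the other probe set of the gene at 3.79, 1.05, 1.07 and 1.30. The fold change of 0.89 on the log2 scale (SE 0.52) did not pass (limma adjusted p = 0.445). Scgn, which encodes the calcium-binding protein secretagogin of islet cells, gave 1.82 in KO_541L and 1.96 in KO_591C, but 1.09 in KO_541J and 0.971 in KO_591D. It stood 0.40 above wildtype on the log2 scale at E14.5 and 0.48 above at E16.5, with overlap at both days.

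**Figure D3:**
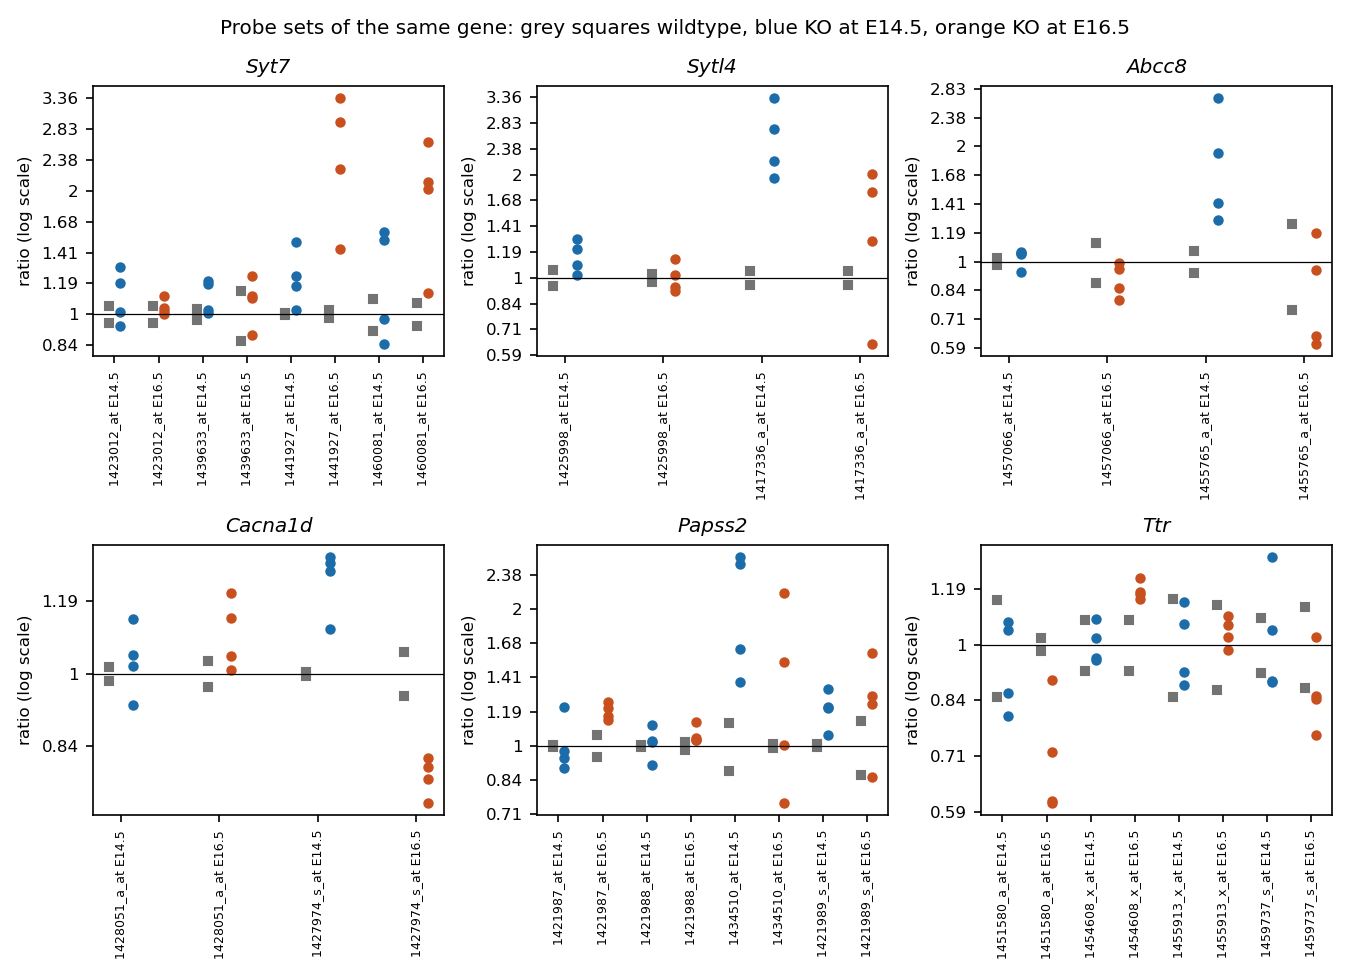
Ratios on a log scale for every probe set of 6 genes, with wildtype pancreata as grey squares, KO at E14.5 in blue and KO at E16.5 in orange. In Sytl4 and in Papss2 a probe set near 1 stands beside another that reaches 3.34 and 2.60 at E14.5, and the Cacna1d probe set 1427974_s_at is above 1 at E14.5 and below 1 at E16.5.

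The plot of all probe sets of 6 genes shows how much a value could depend on the probe set. Of the 13 genes with several, 3 at E14.5 and 5 at E16.5 had probe sets on both sides of 0, and 7 and 4 had some that passed at an unadjusted p and some that did not. The following probe sets were picked out after their values were seen. Sytl4 encodes granuphilin, which docks insulin granules. Its probe set 1417336_a_at gave 2.72, 1.95, 2.19 and 3.34 in KO_540C, KO_540G, KO_615A and KO_615B, against 1.05 and 0.951. This was 1.32 on the log2 scale (SE 0.37, limma unadjusted p = 0.00381, adjusted p = 0.522), while the chosen probe set gave 0.21. At E16.5 it gave 1.28, 2.01, 1.77 and 0.641, on both sides of wildtype.

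Abcc8 probe set 1455765_a_at was read at 1.92, 1.42, 1.28 and 2.67 in KO_540C, KO_540G, KO_615A and KO_615B, above 0.934 and 1.07. At E16.5 it was read at 0.638, 1.19, 0.950 and 0.609 in KO_541J, KO_541L, KO_591C and KO_591D, against 1.25 and 0.747. All 4 KO values were above wildtype at the earlier day, and at the later KO_541J and KO_591D were below both wildtype arrays and the others between them, with fold changes of 0.81 and -0.25. The difference of -1.06 (SE 0.47) did not pass (limma adjusted p = 0.465). Papss2 encodes a sulfate donor synthase, and its probe set 1434510_at gave 2.60, 1.63, 1.39 and 2.51 at E14.5 against 0.879 and 1.12, a fold change of 0.98 (SE 0.37, limma adjusted p = 0.650).

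Cacna1d probe set 1427974_s_at had separate groups at both days, in opposite directions. At E14.5 it gave 1.28, 1.30, 1.11 and 1.32 in KO_540C, KO_540G, KO_615A and KO_615B, all above 0.995 and 1.01. At E16.5 it gave 0.733, 0.776, 0.816 and 0.800 in KO_541J, KO_541L, KO_591C and KO_591D, all below 0.947 and 1.05. The fold changes were 0.32 (SE 0.10, limma adjusted p = 0.562) and -0.36 (SE 0.10, limma adjusted p = 0.0832), and the difference was -0.68 (SE 0.14, limma adjusted p = 0.0794). None of the 3 passed under any alternative run, where the adjusted p of the difference ranged from 0.0570 to 0.508.

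Receptor genes lay near wildtype. Glp1r, the receptor of the incretin GLP-1, and Gcgr, the glucagon receptor, gave 0.07 and -0.03 on the log2 scale at E14.5 and 0.14 and 0.15 at E16.5. Of the remaining islet genes, Rbp4, which encodes retinol-binding protein, followed the layout of Chga, with 2.03, 1.41, 1.11 and 1.86 in KO_540C, KO_540G, KO_615A and KO_615B and 1.41, 2.28, 1.97 and 0.986 in KO_541J, KO_541L, KO_591C and KO_591D. Its fold changes of 0.66 and 0.67 (SE 0.32 each) did not pass, and both days overlapped wildtype. Cryba2, a crystallin expressed in endocrine cells, gave 1.07, 1.32, 1.11 and 1.02 at E14.5 in the same order, against 1.02 and 0.977. At E16.5 it gave 1.14, 1.39, 1.51 and 1.38, against 1.16 and 0.842, where KO_541J lay within the wildtype pair. Its fold changes were 0.17 and 0.45 (SE 0.15 each, limma adjusted p = 0.919 and 0.154). Ucn3, a peptide of mature β-cells, gave 0.14 and 0.01. Dlk1, a secreted and membrane protein of fetal endocrine cells, gave 0.08 and 0.27 on its chosen probe set and 0.65 and 0.25 on 1449939_s_at.

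Ttr encodes transthyretin, a carrier made by islet and liver cells, and its probe sets pointed in both directions at E16.5. Probe set 1451580_a_at gave 0.611, 0.616, 0.896 and 0.716 in KO_541J, KO_541L, KO_591C and KO_591D, all below 0.982 and 1.02, with a fold change of -0.51 (SE 0.18, limma adjusted p = 0.169). Probe set 1454608_x_at gave 1.18, 1.15, 1.23 and 1.17, all above 0.920 and 1.08, with 0.24 (SE 0.10, limma adjusted p = 0.255). At E14.5 the former gave 1.07, 1.05, 0.861 and 0.800 in KO_540C, KO_540G, KO_615A and KO_615B, against 0.851 and 1.15, and all 4 probe sets overlapped wildtype. The mean of the 4 probe sets at E16.5 was -0.10 on the log2 scale, so the gene has no single direction in these data.

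The difference between the days was tested for every probe set. None of the 54 passed at an adjusted p, beside 0.349% of all. At an unadjusted limma p, 2 (3.7%), of Chgb and Syt7, were higher at E16.5, beside 5.32% of all, and 2 (3.7%), of Abcc8 and Cacna1d, were lower, beside 5.04%. The median difference over the 54 was -0.01, with 26 above and 28 below 0, beside 0.01 over all probe sets. Leaving out single pancreata moved the count of higher probe sets between 0, without WT_522C, and 4, without KO_540G, and that of lower ones between 1 and 4, the latter without WT_628G.

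**Figure D4:**
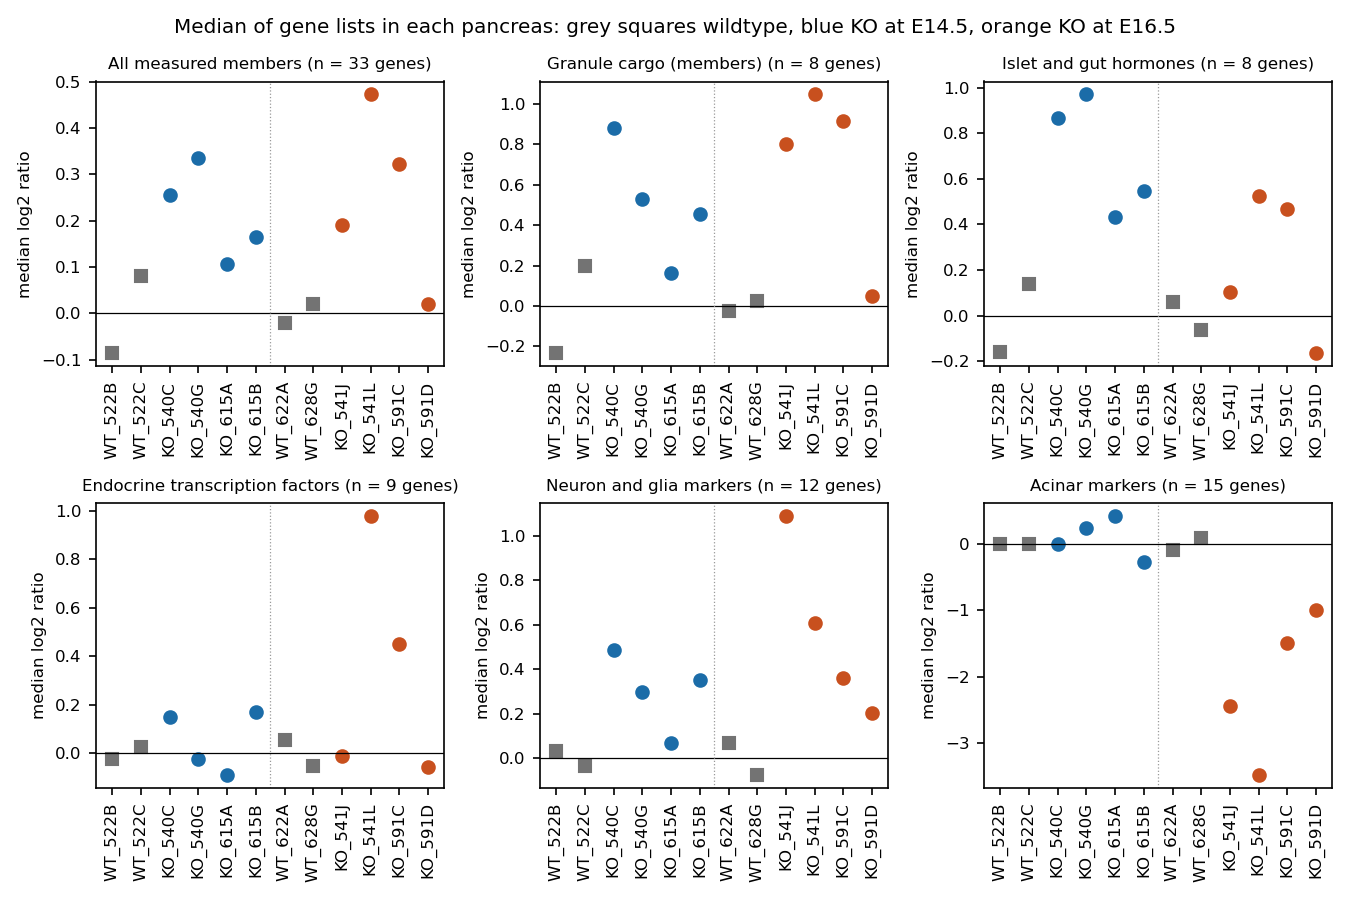
Median log2 ratio of 6 gene lists in each pancreas (1 point per array), with wildtype as grey squares, KO at E14.5 in blue and KO at E16.5 in orange. KO_591D is the lowest KO pancreas of E16.5 for the measured members (0.02) and the granule cargo (0.05), while KO_541J is the highest for neuron and glia markers (1.09).

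The plot of list medians shows how the secretory genes as a whole stood in each pancreas. The median log2 ratio of the 33 genes was 0.26, 0.34, 0.11 and 0.16 in KO_540C, KO_540G, KO_615A and KO_615B, against -0.09 and 0.08 in wildtype. At E16.5 it was 0.19 in KO_541J, 0.47 in KO_541L, 0.32 in KO_591C and 0.02 in KO_591D, against -0.02 and 0.02. KO_591D was the lowest of the 4 KO pancreata for 19 of the 33 genes, beside 24.3% of all probe sets, and KO_541L the highest for 15, beside 20.6%. At E14.5 KO_615A was the lowest for 14 of 33, beside 20.5%. Over genes, the E14.5 and E16.5 medians of the log2 fold change were 0.14 and 0.26, with 30 and 26 of the 33 genes above 0. The former became 0.22 without KO_615B and 0.29 with the mean of each gene's probe sets, and the latter 0.44 without KO_591D.

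Markers of other cell types differed between the same pancreata. Of 15 acinar markers (genes of digestive enzymes and acinar transcription factors), 14 were lower in KO at E16.5. As lower, 9 passed the adjusted test, beside 1.82% of all probe sets. The medians by array were -2.44 in KO_541J, -3.47 in KO_541L, -1.49 in KO_591C and -1.002 in KO_591D. KO_541L, with the lowest acinar median, had the highest member median, and KO_591D, with the acinar median nearest to wildtype, the lowest. The others did not keep that order: KO_541J had a lower acinar median than KO_591C but also a lower member median (0.19 against 0.32). At E14.5 the acinar medians were -0.002, 0.23, 0.42 and -0.27 in KO_540C, KO_540G, KO_615A and KO_615B, and none of the 15 passed. KO_615A, with the highest, had the lowest member median (0.11). KO_615B, with the lowest, had a member median of 0.16, below that of KO_540G (0.34). Of the 15, 6 were above 0 and 9 below. Ptf1a was read at 0.263, 0.269, 1.48 and 0.149 in these 4 pancreata, against 0.954 and 1.05 in wildtype, while Cpb1 lay above wildtype in all 4. Of 12 neuron and glia markers, all were above 0 at E16.5, beside 56.1% of all probe sets. As higher, 2 passed (Elavl4 and Nefl), beside 0.802% of all. The medians were 1.09, 0.61, 0.36 and 0.20 in KO_541J, KO_541L, KO_591C and KO_591D. At E14.5, 11 of 12 were above 0 and none passed, with medians of 0.49, 0.30, 0.07 and 0.35 in KO_540C, KO_540G, KO_615A and KO_615B. The part of acinar or nerve cells in the values of the secretory genes was not tested.

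**Figure D5:**
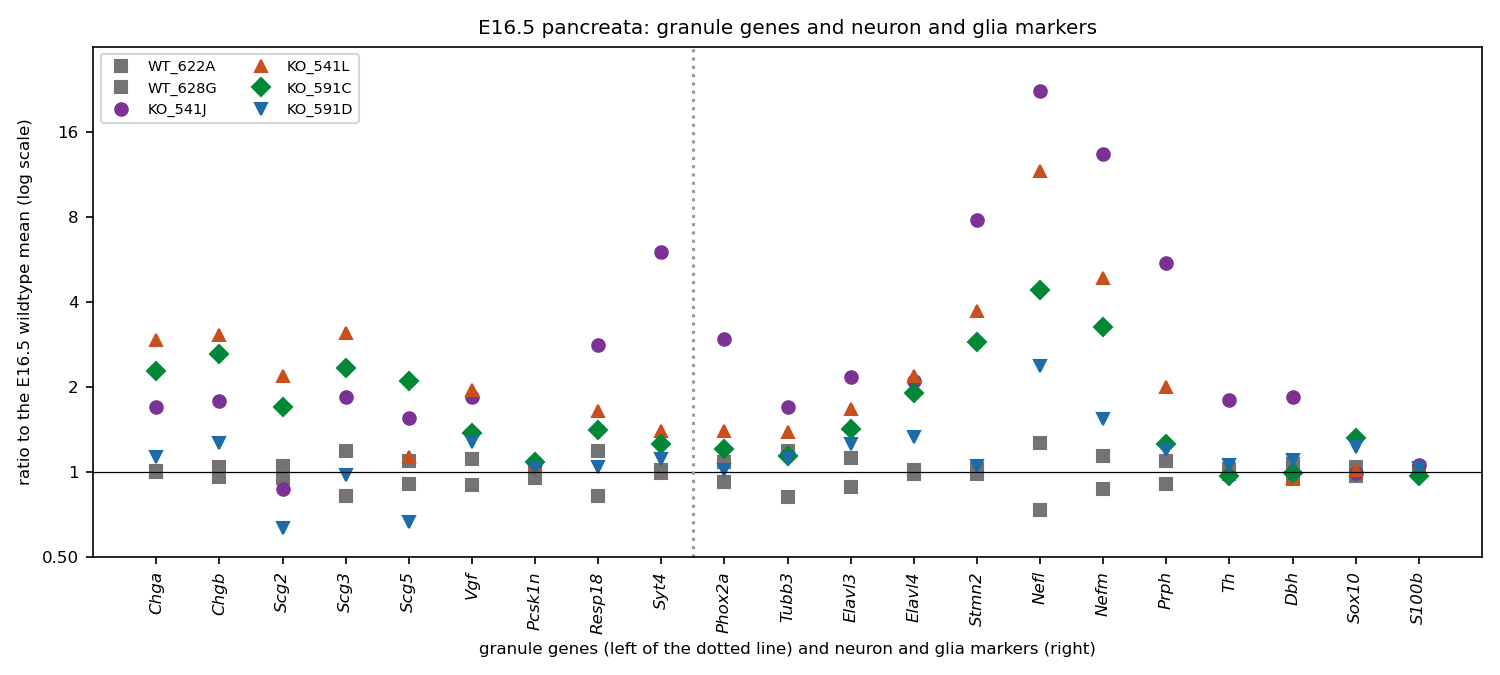
Ratios on a log scale at E16.5 for the 8 granule cargo genes and Syt4 (left) and the 12 measured neuron and glia markers (right), with grey squares for wildtype and 1 symbol for each KO pancreas. KO_541J (purple circles) is the highest for Syt4 at 6.02, for Resp18 and for 10 of the 12 markers, while KO_541L (orange triangles) is the highest for Chga, Chgb, Scg2, Scg3 and Vgf.

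The plot of secretory genes and neuron markers at E16.5 sets both beside each other in each pancreas. Nefl, a neurofilament gene, was read at 22.3, 11.6, 4.42 and 2.38 in KO_541J, KO_541L, KO_591C and KO_591D, and Stmn2, a growth cone gene, at 7.80, 3.72, 2.87 and 1.04. The order of the chosen Syt4 probe set over the 4 pancreata was that of Stmn2 and Nefl. Of the 8 cargo genes, Resp18 showed that order too, at 2.80, 1.65, 1.40 and 1.04. The other Syt4 probe set did not, at 3.79, 1.05, 1.07 and 1.30. Of the other markers, Phox2a, Tubb3, Elavl3, Nefm and Prph kept that order, and Elavl4, Th, Dbh, Sox10 and S100b did not. KO_541J was the second of the 4 KO pancreata for Scg5, Vgf and Pcsk1n, and the third for Chga, Chgb, Scg2 and Scg3. Of the 12 markers, KO_541J was the highest for 10, the second for Elavl4 and the lowest for Sox10. Snap25, an exocytosis gene of neurons and endocrine cells alike, gave 5.85, 3.92, 2.91 and 0.809, with a fold change of 1.45 on the log2 scale (limma adjusted p = 0.259).

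Other genes of the same path were counted from lists by function. Of 9 islet and gut hormone genes 8 were measured. At E14.5, 7 of 8 were above 0 with a median of 0.68, none passed the adjusted test and 5 (Ins2, Gcg, Pyy, Iapp and Gip) passed at an unadjusted p, beside 2.34% of all probe sets as higher. Ins2, which encodes insulin 2, was read at 5.996, 5.80, 3.14 and 3.93 in KO_540C, KO_540G, KO_615A and KO_615B (2.19 on the log2 scale, limma adjusted p = 0.111), and at 1.05, 1.62, 1.502 and 0.662 in the KO pancreata of E16.5. At E16.5 the hormone median was 0.22. Of 9 measured endocrine transcription factors, 4 were above 0 at E14.5, with a median of -0.01, and 9 at E16.5, with a median of 0.24, and none passed at either day. Isl1 was the one with the largest fold changes, 0.97 and 0.93.

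Of 15 measured genes of the wider exocytosis machinery, which dock and fuse granules, 8 were above 0 at E14.5 and 12 at E16.5, with medians of 0.05 and 0.07, and none passed. Of 6 measured prohormone processing genes outside the members, none passed at either day, with medians of 0.02 and 0.04. Qpct, which forms the pyroglutamate end of peptides, was the one with the largest value at E16.5 (0.92, limma adjusted p = 0.0627). Of 6 measured genes of the wider glucose response, 1 passed as lower at E16.5, beside 1.82% of all probe sets. Pcx, which encodes pyruvate carboxylase, a mitochondrial enzyme found in islet and in many other cells, was read at 0.391, 0.360, 0.390 and 0.471 in KO_541J, KO_541L, KO_591C and KO_591D, and fell by 1.29 on the log2 scale (limma adjusted p = 0.00903). At E14.5 it ranged from 0.889 to 1.41.

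Liver, leukocyte, mesenchyme and endothelium markers were also read. At E14.5 none of the 33 measured genes of these 4 lists passed, and the medians were 0.07, 0.27, 0.37 and 0.14. At E16.5 the medians were 0.22, 0.24, 0.43 and 0.25. Csf1r of the 9 leukocyte genes and Col3a1 and Lum of the 9 mesenchyme genes passed as higher, beside 0.802% of all probe sets. C1qa of the leukocyte genes passed as lower, beside 1.82%. Over all probe sets, 55.4% were above 0 at E14.5 and 56.1% at E16.5. Mesenchyme genes were above 0 in 9 of 9 at E14.5, with medians by array of 0.55, 0.56, 0.23 and 0.46 in KO_540C, KO_540G, KO_615A and KO_615B, and in 8 of 9 at E16.5, with 0.59, 1.40, 0.11 and 0.28 in KO_541J, KO_541L, KO_591C and KO_591D. KO_615A was thus the lowest KO pancreas of its day and KO_541L the highest of its day, as for the member median, and the same held for the leukocyte and endothelium medians (0.13 and -0.01 in KO_615A, 0.46 and 0.46 in KO_541L). KO_591D, the lowest for the members, was also the lowest for endothelium genes (0.05) but not for mesenchyme or leukocyte genes. The liver also makes the products of Ttr and Rbp4. Of its 9 genes, 7 were above 0 and 2 below at E16.5, from -0.37 for Afp to 1.26 for Fgb, and the median was the highest in KO_591D (0.32) and the lowest in KO_541L (0.11). The part of these cells in the member values was not tested.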

How the data were processed

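Total RNA of each pancreas was amplified in 2 rounds before labelling, which can distort rare transcripts. The authors normalized the arrays by RMA and deposited every value as a ratio whose denominator is that day's wildtype average. The 2 wildtype ratios of every probe set add to 2 within 3e-07. The ratios hold no background signal, so dim probe sets could not be set aside, and the number of arrays limits the precision. Of 45101 probe sets, 64 controls were left out. Gene names came from the platform annotation: 34945 probe sets had 1 symbol, 932 several and 9160 none, and none was named from several. The fits were made on log2 ratios in limma 3.58.1 (R 4.3.3), with 4 groups, 8 residual degrees of freedom and Benjamini-Hochberg adjustment over 45037 probe sets, for KO against wildtype at each day and for the difference between the days. The limits were 0.05 for adjusted and unadjusted p. Dividing every array of a day, wildtype and KO alike, by the same wildtype mean leaves the log2 fold changes between them unaltered. The fit was tested on simulated data.

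The members and gene lists were chosen with earlier results of these data known. Every member is named, and values in every array are given for genes with a limma call, or whose chosen probe set passed at an unadjusted p, and for G6pc2. A plain _at name was preferred in choosing a probe set, the _s_at and _x_at names came last, and ties went to the lowest number. Alternatives were quantile normalization, median centring, a trended and robust variance, each day alone, the number in the array name as a random block (statmod 1.5.0), the methods' t-test, no _x_at or _s_at probe sets, the mean of a gene's probe sets, and leaving out each array. The arrays are independent embryos by the study's methods, which does not exclude shared litters. Promoters came from RefSeq (GRCm38.p6). Plots used Python 3.11.15 and matplotlib 3.10.9.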

Additional observations from a re-analysis of the deposited data

Results flagged for a closer look

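Dixon's criterion was applied to each of 108 groups of 4 KO pancreata (54 probe sets at 2 days). It picked out 9, where chance gives about 1 in 20, or 5.4 of 108. Values below are the gap to the nearest pancreas over the range of the group, all above the critical value for 4 samples.

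Both probe sets of Syt4, which encodes a synaptotagmin of neuroendocrine granules, had KO_541J apart at E16.5. Probe set 1415844_at was read at 6.02 there and from 1.11 to 1.40 in the others (0.864), and 1415845_at at 3.79 against 1.05 to 1.30 (0.834). KO_541J was also the lowest of its group for Ptprn2 1425724_at, at 0.919 against 0.992 to 1.0 (0.907), and for Syt13 1451045_at, at 0.910 against 1.05 to 1.07 (0.875).

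KO_591D was apart as the highest at E16.5 for 3 probe sets: Kcnj11 1455417_at at 1.34 against 1.03 to 1.06 (0.895), Cacna1a 1430408_at at 1.11 against 0.949 to 0.966 (0.888) and Papss2 1421988_at at 1.13 against 1.03 to 1.04 (0.887). It was also the highest of the 4 KO pancreata for 44.3% of all probe sets of the array. At E14.5, KO_540G was the highest for Cpe 1439437_x_at, at 1.40 against 1.02 to 1.05 (0.916), and it was the highest for 45.7% of all probe sets. KO_540C was the lowest for Abcc8 1457066_at, at 0.942 against 1.05 to 1.06 (0.879).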

How the results depend on the processing

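Over 27 values and their alternatives, 497 of 516 kept their direction and their side of the limit. Of the rest, 13 were weaker, 5 stronger and 1 reversed. All 13 weaker ones were losses of the 1 adjusted call, that of Syt7 at E16.5. The other values did not pass in the main fit, so keeping their side meant only that they still did not pass. Leaving out an array of the other day cannot move a fold change within a day. The share of 497 in 516 is therefore not a measure of how stable a call is. No paired analysis was possible because no replicate number is shared between wildtype and KO arrays, and the number in the array name as a random block (correlation -0.09) changed no member's adjusted call. The 12 probe sets higher at E14.5 at an unadjusted p became 7 under quantile normalization, and 3 to 16 with an array left out. The 1 adjusted call at E16.5 became 0 under quantile normalization, median centring, a trended and robust variance, each day alone and the methods' t-test, and 0 to 6 with an array left out. The 9 higher at E16.5 at an unadjusted p became 3 under quantile normalization, 4 under the methods' t-test and 5 to 17 with an array left out. The 2 lower became 1 under each of these and without _x_at and _s_at probe sets, and 1 to 2 with an array left out. For the difference between the days, the 2 higher became 1 under quantile normalization and under a trended and robust variance, and 0 to 4 with an array left out. The 2 lower became 1 under median centring and without _x_at and _s_at probe sets, and 1 to 4 with an array left out. Probe sets wholly above wildtype went from 18 up to 33 at E14.5 and from 13 up to 27 at E16.5, and those wholly below from 0 up to 4 and from 2 up to 6, since fewer arrays leave fewer to overlap. For these counts and those at an unadjusted p, the share of all probe sets was taken in the main setting only. Their changes are therefore not a result about the members. The median fold change of the genes at E14.5 went from 0.14 to 0.29 with the mean of a gene's probe sets, and at E16.5 from 0.26 to 0.17 under quantile normalization. Ttr 1454608_x_at at E16.5 reversed, from 0.24 to -0.10, when the mean of the 4 Ttr probe sets was taken, because the others lie lower. Over all probe sets the E16.5 calls were 361 higher and 821 lower. The methods' t-test gave 0, but it was run here without the study's filter, so it is not the study's whole procedure. The calls fell to 10 and 61 under quantile normalization and to 7 and 79 under a trended and robust variance. Quantile normalization was run on the log2 ratios and gives every array the same spread. Before it, the interquartile range was 0.11 to 0.15 in wildtype arrays and 0.20 to 0.41 in KO arrays. Calls lost in that setting, for members or all probe sets, are therefore not a measure of how stable a call is. Without KO_591D they were 1572 and 1290. The causes were not tested.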
